A study of Mus musculus with 11 samples.

Results

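The Wnt ligands of the epidermis were followed as 10 genes, Wnt3, Wnt4, Wnt5a, Wnt7a, Wnt7b, Wnt9a, Wnt10a, Wnt10b, Wnt11 and Wnt16, in keratinocytes (KCs) and dendritic epidermal T cells (DETCs) of mice with and without Langerhans cells (LCs). The 10 genes were taken by name from the 19 Wnt genes of the mouse, and the deposited table holds 52550 genes. All 10 of 10 passed the filter on low counts, a CPM (reads of the gene per 1e6 reads of the library) above 1 in at least 2 of the 11 libraries, which left 14419 genes for testing. The question was which ligands are found in KC and which in DETC libraries, and whether their transcripts differ when LCs are missing.

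KCs and DETCs were sorted from epidermal cell suspensions of flank skin, and their poly-A RNA was sequenced. The LC-/- mice carry huLangerin-DTA, a transgene in which the human langerin promoter drives diphtheria toxin subunit A, so that LCs are missing from birth, and the wild type (WT) controls were their littermates. All mice were female and 8 weeks old. The sort kept live single cells without surface MHC-II, langerin or c-kit, and took the CD45-negative cells as KCs and the CD45-positive cells as DETCs. There were 3 WT and 3 LC-/- KC libraries, and 3 WT and 2 LC-/- DETC libraries. The mouse numbers of the labels are written W1 to W3 for WT and L1 to L3 for LC-/-, and L1 has a KC library alone. By the authors' account of the RNA-seq samples the libraries of a group come from separate animals, so the p-values measure the spread between animals. Whether KCs and DETCs under 1 mouse number were sorted from 1 mouse is not settled by the sources used here.

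Each value below is a normalized count, the reads of a gene divided by a size factor of the library. The depth was 13491075 to 19750440 gene reads a library. Its median was 14340318 for KC libraries of WT mice and 14440409 for those of LC-/- mice, and for DETC libraries 16874365 (WT) and 17712399.5 (LC-/-). Cd207, the gene of langerin, had 0 reads in all 3 LC-/- KC libraries and normalized counts of 6.15, 26.9 and 15.6 in the WT KC libraries. In DETC libraries Cd207 stood at 21.8, 16.5 and 46.7 in WT and at 0 and 4.42 in LC-/- mice. The labels of the populations were checked with markers. The 17 DETC genes, T cell receptor genes such as Trdc among them, summed to 262435 to 287513 in DETC libraries and to 355 to 671 in KC libraries.

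Wnt proteins are secreted, lipid-modified signals that bind Frizzled receptors with LRP co-receptors. In the canonical branch this stabilizes beta-catenin, which then works with TCF/LEF factors in the nucleus, while other branches act on cell polarity and movement. In skin, Wnt signals are known for the formation and cycling of hair follicles and for the upkeep of basal keratinocytes.

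The ligands split by population. Wnt9a, Wnt10b and Wnt11 were higher in DETC libraries, and Wnt3, Wnt4, Wnt5a, Wnt7a, Wnt7b, Wnt10a and Wnt16 were higher in KC libraries. In WT mice limma called all 10, where called means an adjusted p under 0.05 (Benjamini-Hochberg over all 14419 tested genes, on log2 of the normalized count plus 1). DETCs and KCs differ in most of their genes, and 76.0% of all tested genes were called in this comparison, 41.0% as higher and 35.1% as lower in DETCs. This balance turned with quantile normalization, from 5906 higher and 5059 lower to 4693 higher and 6658 lower. The groups did not overlap for all 10 ligands and for 79.4% of all tested genes. A call is therefore the usual outcome here, and the levels and sizes of the differences describe the ligands.

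Wnt9a, a ligand known from joint formation, was nearly confined to DETC libraries by its counts. Its normalized counts in WT DETCs were 411, 365 and 346, against 17.4, 14.8 and 6.92 in WT KCs, where they rest on 17, 16 and 8 reads. Every DETC library lay far above every KC library. The log2 difference between WT DETCs and WT KCs was 4.82 (standard error 0.30, limma adjusted p = 3.30e-07), a 28.3-fold difference with a 95% interval of 17.8 to 45.1.

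Wnt10b, a canonical ligand expressed early in hair placodes, was present in both populations and higher in DETCs. WT DETC libraries held 790.1, 683 and 691 normalized counts and WT KC libraries 166, 224 and 183. The lowest DETC library lay about 3 times above the highest KC library. The log2 difference was 1.92 (standard error 0.12, limma adjusted p = 4.34e-07), or 3.78-fold. Wnt11, known for signalling through the non-canonical branch, stood at 515, 881 and 692 in WT DETCs and at 277, 264 and 265 in WT KCs. The WT DETC libraries spread widely for Wnt11, with W1 lowest, and all 3 lay above the KC libraries. Its log2 difference was 1.34 (standard error 0.17, limma adjusted p = 5.30e-05), or 2.53-fold.

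The ligands of KC libraries were led by Wnt3, Wnt10a, Wnt4 and Wnt7b. Wnt3, a canonical ligand, had 1429.6, 1687 and 1447 normalized counts in WT KCs and 234, 288 and 246 in WT DETCs, so the groups were far apart. Its log2 difference was -2.57 (standard error 0.10, limma adjusted p = 1.70e-08), and it was 5.93-fold lower in DETCs. Wnt10a, whose human gene is mutated in ectodermal dysplasias, had 1193, 1108 and 1162 counts in WT KCs and 207, 153 and 246 in WT DETCs. Wnt4, known for its role in kidney and ovary development, had 1584, 1567 and 1425 counts in WT KCs and 229, 269 and 224 in WT DETCs. Wnt7b, a canonical ligand of lung development and the hair cycle, was the most even of the KC ligands, at 1783, 1801 and 1756 in WT KCs and 301, 320.2 and 331 in WT DETCs. For these 3 ligands no DETC library came near a KC library, and their log2 differences were -2.54, -2.66 and -2.49.

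Wnt16, Wnt5a and Wnt7a were less abundant in KCs. Wnt16, which is known for its effect on cortical bone, had 421, 349.7 and 416 counts in WT KCs against 57.8, 52.0 and 72.9 in WT DETCs, a log2 difference of -2.69. Wnt5a, the best known ligand of the non-canonical branch, had 348, 404 and 272 counts in WT KCs against 61.1, 77.6 and 37.9 in WT DETCs, a log2 difference of -2.56. For both genes the KC libraries were all higher. Wnt7a, known from the dorsal side of the limb, was close to the limit of detection, with 10.2, 13.9 and 13.8 counts in WT KCs and 3, 4 and 0 reads in the WT DETC libraries. A count of 0 allows up to 3 reads, counting error alone, so the log2 difference of Wnt7a of -2.36 (limma adjusted p = 0.00406) rests on few reads.

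**Figure D1:**
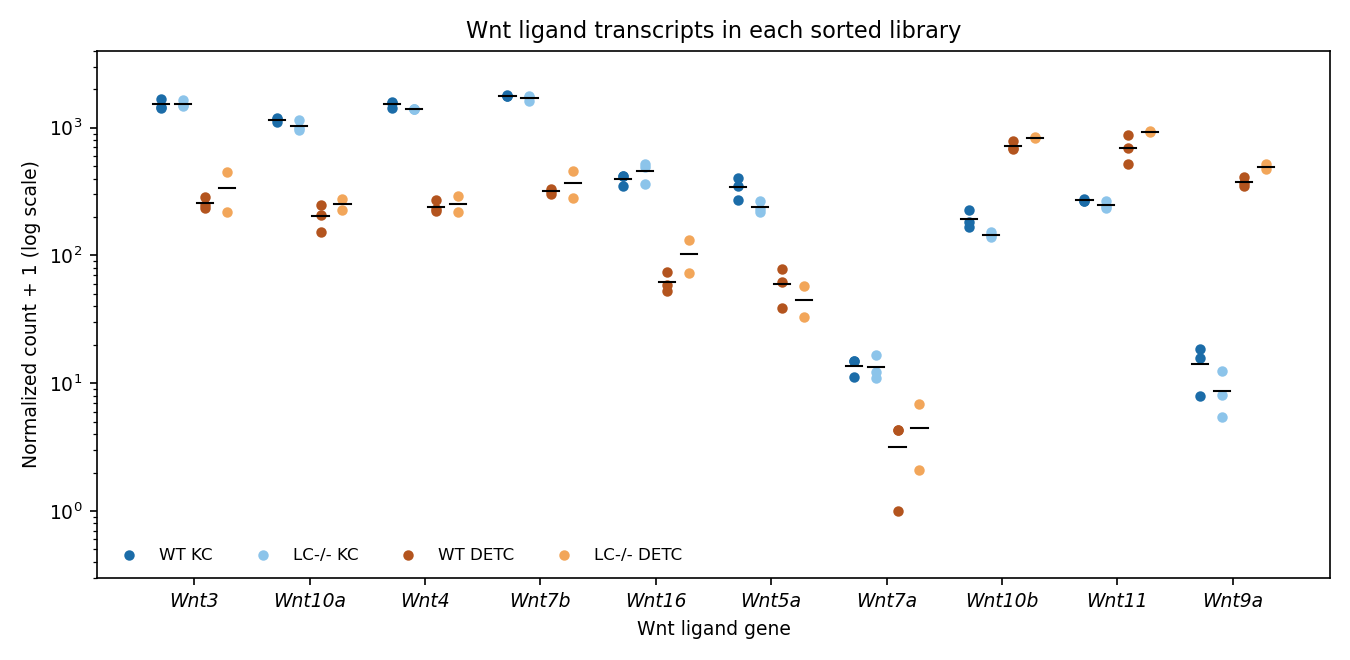
Normalized count plus 1 (log scale) of each Wnt ligand in every library, with KC libraries in blue, DETC libraries in orange, lighter points for LC-/- mice, and a bar at the mean of each group. The first 7 genes are higher in the KC libraries and the last 3, Wnt10b, Wnt11 and Wnt9a, in the DETC libraries.

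Between genes, levels were compared as normalized counts per kb of exon length. In WT KCs Wnt3 (495 ± 46.8, SD, n = 3) and Wnt10a (468 ± 17.3) led and overlapped, followed by Wnt4 (364 ± 20.9) and Wnt7b (363 ± 4.69), which overlapped too. Wnt16 stood apart at 90.7 ± 9.13 counts per kb, followed by Wnt11 (64.9 ± 1.71), Wnt10b (56.2 ± 8.83) and Wnt5a (43.7 ± 8.48), each overlapping its neighbour in this order. Wnt7a (3.99 ± 0.660) and Wnt9a (3.92 ± 1.64) came last and could not be ordered. In LC-/- KCs the 4 leading ligands per kb were Wnt3 (500.3 ± 29.6), Wnt10a (418 ± 40.6), Wnt7b (349 ± 15.9) and Wnt4 (334 ± 0.993), with overlap between the last 2.

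In DETCs a different set led. Wnt10b (212 ± 17.5 counts per kb, SD, n = 3) and Wnt11 (168 ± 44.3) overlapped in WT DETCs, followed by Wnt9a (112 ± 10.1) below both. Wnt3 (83.2 ± 9.28), Wnt10a (81.9 ± 19.0), Wnt7b (64.8 ± 3.05) and Wnt4 (57.4 ± 5.90) came next, each overlapping its neighbour, and then Wnt16 (14.0 ± 2.48), Wnt5a (7.53 ± 2.55) and Wnt7a (0.691 ± 0.598). In LC-/- DETCs the order was again Wnt10b (245 ± 1.80, SD, n = 2), Wnt11 (224 ± 4.17) and Wnt9a (148 ± 9.87), and Wnt9a overlapped Wnt3 (109 ± 54.2). As a share of the summed level per kb of the 10 ligands, Wnt9a, Wnt10b and Wnt11 together made up 57.5% to 67.8% in the DETC libraries and 5.35% to 6.69% in the KC libraries.

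DETC libraries also held transcripts typical of keratinocytes. For each of them the values of 22 keratinocyte genes were divided by the mean KC value of the same genotype. The median of these ratios was 16.1% in W1, 15.8% in W2, 18.9% in W3, 25.8% in L2 and 16.2% in L3. Single genes ran widely, from 6.31% to 43.9% in W1, 11.9% to 65.8% in W2 and 6.26% to 61.2% in W3. In L2 they ran from 15.5% to 68.5% and in L3 from 5.22% to 42.3%. The summed level of the list was 130071, 154702 and 154291 in WT DETCs, 215405 in L2 and 139775 in L3, against 751323 to 805330 in KC libraries. Krt5, its most abundant gene, averaged 114880 counts in KCs and 19323 in DETCs, and none of the 22 genes was at 0. In WT mice 22 of 22 keratinocyte genes were called lower in DETCs, with a median log2 difference of -2.57. Of basal genes it was 10 of 10 (-2.61), and of suprabasal genes 10 of 12 (-1.42), with the other 2 above 0. The suprabasal list summed to 51841 in W2 and 53751 in L2, and to 20682 to 30039 in the other DETC libraries.

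The same ratio was taken for the ligands that were higher in KCs. For Wnt3, Wnt4, Wnt5a, Wnt7b, Wnt10a and Wnt16 the DETC value was a median of 16.1% of the KC mean in W1, 17.8% in W2, 17.3% in W3, 26.7% in L2 and 15.6% in L3. From 1 of 6 (W3) to 4 of 6 (W2 and L2) lay above the keratinocyte median of their library, and both medians were highest in L2. Wnt7a was left out of these medians for its few reads, and stood at 25.9%, 26.1% and 0% in WT DETCs and at 47.4% in L2, with 1 read in L3. Wnt3, for example, stood at 15.4%, 18.9% and 16.2% of the KC mean in WT DETCs, at 29.4% in L2 and at 14.1% in L3. Wnt9a, Wnt10b and Wnt11 stood at 191.8% or more of the KC mean in every DETC library. The part of keratinocyte transcripts in the DETC values of the 6 ligands was not tested. In bulk libraries fewer cells of a type cannot be told apart from less RNA per cell.

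**Figure D2:**
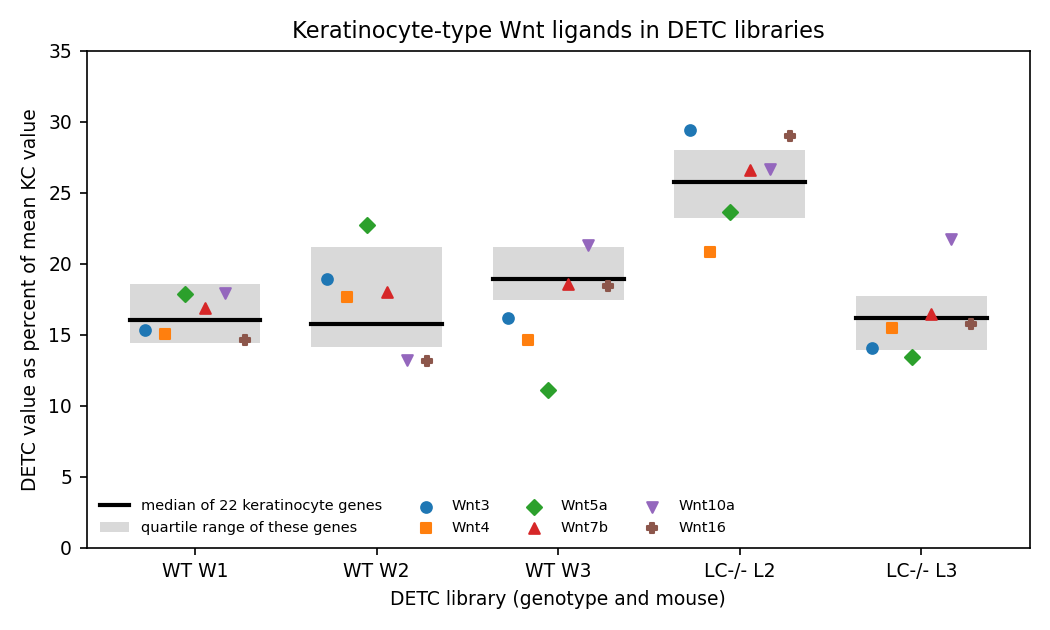
DETC value of 6 Wnt ligands as a percentage of the mean KC value of the same genotype, by DETC library (WT W1 to W3, LC-/- L2 and L3), over the quartile range (grey) and median (black line) of 22 keratinocyte genes. The medians of the ligands (26.7%) and of the keratinocyte genes (25.8%) are both highest in L2, and single ligands lie above or below the grey range.

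The reverse was measured for the ligands of DETC libraries. DETC genes were nearly absent from KC libraries, with a median of 0% to 0.0251% of the mean DETC value over the 17 genes and a highest single ratio of 2.28%. Their most abundant gene was Thy1 in KC libraries (497 counts) and Il2rb in DETC libraries (44123 counts). Wnt10b in KC libraries was at 16.7% to 31.1% of its mean DETC value, and Wnt11 at 25.4% to 39.7%, above every DETC marker gene. Wnt9a in KC libraries was at 0.892% to 4.66%, partly within the range of the markers. These shares were computed after the values had been seen.

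Markers of other cells were read in both sorts. Of 16 hair follicle genes, Krt17 was the most abundant in KC libraries (16174 counts) and Lrig1 in DETC libraries (3114 counts). The list summed to 40966 to 47965 in KC and 7785 to 12734 in DETC libraries, and Shh was at 0 in DETC libraries. The sebaceous list summed to 888 to 3033, nearly all of it Scd1. Melanocyte genes summed to 121 to 461 with Mitf the most abundant, fibroblast genes to 60.2 to 469 with Fbln1, endothelial genes to 14.6 to 48.6 with Vwf in KCs and Pecam1 in DETCs, and Merkel cell genes to 1.09 to 30.5 with Krt8 in KCs and Krt18 in DETCs. Atoh1 was at 0 in all libraries, and Mlana, Slc45a2, Krt20, Lum, Dpt, Emcn and Tie1 were at 0 in DETC libraries. Mast cell genes summed to 5.12 to 12.1 in KC and 294 to 573 in DETC libraries, all but a few counts from Kit, while Cpa3, Mcpt4, Tpsb2, Fcer1a and Ms4a2 were at 0 in all libraries. LC genes summed to 6156 to 6768 in WT and 9554 to 10086 in LC-/- KCs. In DETCs they summed to 2239 to 2785 in WT and 2510 to 3141 in LC-/- mice. Epcam, which KCs express too, was the most abundant (mean 7947 in KC and 1642 in DETC libraries), so this sum is no measure of LCs. The sort was gated against surface langerin, MHC-II and c-kit, while transcripts of Cd207 and Kit were counted at the levels given here. The part of these cells in the ligand values was not tested.

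In KCs a call of a ligand between LC-/- and WT mice depended on the tool. limma called 0 of the 10 ligands, against 7.23% of all tested genes, and at an unadjusted p under 0.05 it gave 3 lower and 0 higher, where 3799 of all 14419 genes reached it and 1683 were lower. edgeR and DESeq2, run on reads, called 1 each, Wnt5a, where they called 1783 and 1752 of all 14419 genes. The groups did not overlap for 3 ligands, Wnt4, Wnt5a and Wnt10b, all lower in LC-/- KCs, while 31.5% of all tested genes had no overlap and 14.9% had none with lower values. By these shares 3 of 10 is near the background for either direction. The share for lower values alone follows the direction that these 3 ligands took, so it is no separate standard. The median log2 difference of the 10 ligands was -0.12 and 8 of 10 were below 0, against a median of -0.01 and 7471 of 14419 below 0 over all tested genes. Below 0 in KCs were also 7 of 22 keratinocyte genes (median 0.0334, with 2 called higher), 8 of 12 suprabasal genes (-0.10) and 6 of 11 hair follicle genes (-0.0779). So were 3 of 3 sebaceous genes (-0.0923, with 1 called lower), 3 of 4 fibroblast genes (-0.29) and 2 of 2 melanocyte genes (-0.86). For DETC genes it was 7 of 17 (0.35, with 1 called higher) and for LC genes 7 of 8 (-0.99, with 3 called lower and 1 higher). The part of these lists in the differences of the ligands and of other Wnt pathway genes in KCs was not tested.

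Of these 3, Wnt5a had the largest log2 difference in KCs. Its normalized counts were 348, 404 and 272 in WT and 231, 217 and 267 in LC-/- KCs. The highest LC-/- library, L3, lay just under the lowest WT library, W3. The log2 difference was -0.50 (95% interval -0.93 to -0.08, limma adjusted p = 0.137), and the adjusted p was 0.0327 by edgeR and 0.0133 by DESeq2. Over all 17 alternatives it ranged from 0.0133 to 0.308. Wnt10b stood at 166, 224 and 183 in WT and at 139, 145 and 150.3 in LC-/- KCs, with the LC-/- libraries close together below the WT ones. Its log2 difference was -0.39 (95% interval -0.71 to -0.07, limma adjusted p = 0.132). Wnt4 differed by less, at 1584, 1567 and 1425 in WT and 1404, 1396 and 1398 in LC-/- KCs, and its log2 difference was -0.12 (limma adjusted p = 0.188). All 3 LC-/- libraries lay just under WT library W3.

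The leading KC ligands were measured closely enough to bound a difference between genotypes. Wnt3 had 1496, 1477 and 1643 counts in LC-/- KCs, within the WT range, and a log2 difference of 0.02 with a 95% interval of -0.19 to 0.23. Wnt7b had 1735, 1772 and 1622 counts and a log2 difference of -0.06, with an interval of -0.16 to 0.05. For Wnt10a, with 1147, 959.9 and 991 counts, the log2 difference was -0.16 and the interval -0.36 to 0.03, and the genotypes overlapped through library L1. Wnt11 (-0.11, interval -0.28 to 0.06) and Wnt16 (0.19, interval -0.22 to 0.61) overlapped between genotypes as well. For Wnt9a, from 4 to 17 reads in a KC library, the interval was wide, -1.83 to 0.45 around a log2 difference of -0.69, and a difference was not detectable at this depth. The same holds for Wnt7a, at -0.05 with an interval of -0.60 to 0.49. The differences of Wnt3 and Wnt7a were near 0 and their sign turned with single libraries, between -0.03 and 0.10 for Wnt3 and between -0.23 and 0.08 for Wnt7a when each library was left out in turn, and for both with quantile normalization.

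In DETCs limma called 0 of the 10 ligands between genotypes, against 3.56% of all tested genes. At an unadjusted p under 0.05 it gave 1 ligand, Wnt9a, where 2775 of all 14419 genes reached it. By edgeR and DESeq2 0 of the ligands were called, where they called 483 and 1079 of all 14419 genes. The groups did not overlap for 3 ligands, Wnt9a, Wnt10b and Wnt11, all higher in LC-/- DETCs, while 37.9% of all tested genes had no overlap and 21.3% had none with higher values. By these shares 3 of 10 is not above the background for either direction. The share for higher values alone follows the direction that these 3 ligands took, so it is no separate standard. These 3 are the ligands that were higher in DETCs than in KCs.

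Wnt9a had 411, 365 and 346 counts in WT and 518 and 471 in LC-/- DETCs. Both LC-/- libraries lay above all 3 WT libraries. The log2 difference was 0.40 (95% interval 0.13 to 0.68, limma adjusted p = 0.116). Wnt10b had 790.1, 683 and 691 counts in WT and 838 and 829 in LC-/- DETCs, and a log2 difference of 0.21 (95% interval -0.02 to 0.45, limma adjusted p = 0.309). Wnt11 had 515, 881 and 692 counts in WT and 917 and 941 in LC-/- DETCs, and a log2 difference of 0.45 (95% interval -0.01 to 0.91, limma adjusted p = 0.270). It ran from 0.25 to 0.64 with 1 DETC library left out. For Wnt10b and Wnt11 the 2 LC-/- libraries lay close together above a wider WT range.

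Of the 7 ligands that were higher in KCs, 6 had their highest DETC value in library L2. Wnt3 had 234, 288 and 246 counts in WT DETCs, 452 in L2 and 217 in L3, so that L2 was the highest and L3 the lowest of the 5 libraries. Wnt7b (455 in L2 and 282 in L3), Wnt4 (291 and 217) and Wnt16 (132 and 71.9) were likewise highest in L2. Their log2 differences were 0.30 for Wnt3 (95% interval -0.35 to 0.94), 0.18 for Wnt7b (-0.27 to 0.62), 0.07 for Wnt4 (-0.32 to 0.46) and 0.68 for Wnt16 (-0.01 to 1.37). Wnt5a was the exception, with 61.1, 77.6 and 37.9 counts in WT DETCs, 56.3 in L2 and 32.1 in L3, and a log2 difference of -0.40 (-1.26 to 0.46). Wnt10a stood at 0.33 (-0.17 to 0.82) and Wnt7a, with 6 and 1 reads in the LC-/- libraries, at 0.52 (-1.62 to 2.67). With 1 DETC library left out, Wnt5a ran from -0.80 to -0.0043, Wnt16 from 0.25 to 1.12 and Wnt10a from 0.14 to 0.48.

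Of the 10 ligands 9 had a log2 difference above 0 in DETCs, with a median of 0.31, against 7554 of 14419 genes and a median of 0.02 over all tested genes. Without library L2 it was 5 of 10 and a median of 0.0165. Without library L3, 9 of 10 were above 0 with a median of 0.47, and limma called 1 ligand, Wnt3, at a log2 difference of 0.83 (limma adjusted p = 0.0420, from 0.0420 to 0.804 over its 16 alternatives). Of the keratinocyte list 19 of 22 genes were above 0, with a median log2 difference of 0.28 and 0 genes called by limma. Above 0 were also 10 of 10 basal keratinocyte genes (median 0.29) and 8 of 11 tested hair follicle genes (0.34). In other lists it was 5 of 12 suprabasal genes (-0.0459), 3 of 17 DETC genes (-0.0806, with 1 called lower) and 1 of 8 LC genes (-1.97, with 4 called lower and 1 higher). For sebaceous genes it was 1 of 3 (-0.65), for fibroblast genes 1 of 4 (-0.15) and for melanocyte genes 0 of 2 (-0.38). The summed level of the 22 genes was 215405 in L2 and 130071 to 154702 in the other DETC libraries. The part of the transcripts of these lists in the differences was not tested.

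The difference between genotypes was then compared between the populations with an interaction term, the DETC log2 difference minus the KC one. limma called 0 of the 10 ligands, against 0.798% of all tested genes. At an unadjusted p under 0.05 it gave 3 ligands, all higher, where 1634 of all 14419 genes reached it and 1052 were higher. By edgeR and DESeq2 0 of the ligands were called, where they called 114 and 312 of all 14419 genes. All 10 ligands were above 0, with a median of 0.49, against 8160 of 14419 genes and a median of 0.05 over all tested genes. Without library L2 it was 5 of 10 and a median of 0.0180, and without library L3 limma called Wnt7b at 0.58 (limma adjusted p = 0.0485, from 0.0485 to 0.837 over its 21 alternatives). Above 0 were also 20 of 22 keratinocyte genes (median 0.26), 10 of 10 basal genes (0.30), 10 of 11 hair follicle genes (0.38), 9 of 12 suprabasal genes (0.0570), 6 of 17 DETC genes (-0.43) and 5 of 8 LC genes (0.21), and their part in the result was not tested.

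Wnt10b had the narrowest interval of the unadjusted 3. The interaction was 0.60 (95% interval 0.23 to 0.98, limma adjusted p = 0.162), from a lower level in LC-/- KCs and a higher level in LC-/- DETCs. Over its 21 alternatives it ranged from 0.43 to 0.70. For Wnt11 the interaction was 0.56 (0.07 to 1.05, limma adjusted p = 0.371) and for Wnt10a 0.49 (0.00112 to 0.98, limma adjusted p = 0.440). Wnt9a had the largest value, 1.09, with a 95% interval that reaches 2.19 and just includes 0. For 7 of the 10 ligands, all but Wnt3, Wnt5a and Wnt16, the mean was lower in LC-/- than in WT KCs and higher in LC-/- than in WT DETCs. Without library L2 the DETC log2 differences of Wnt4 (-0.15), Wnt7a (-0.33) and Wnt7b (-0.17) fell below 0. None of the 10 was called by limma in either population, and the share of all tested genes with opposite directions was not counted.

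**Figure D3:**
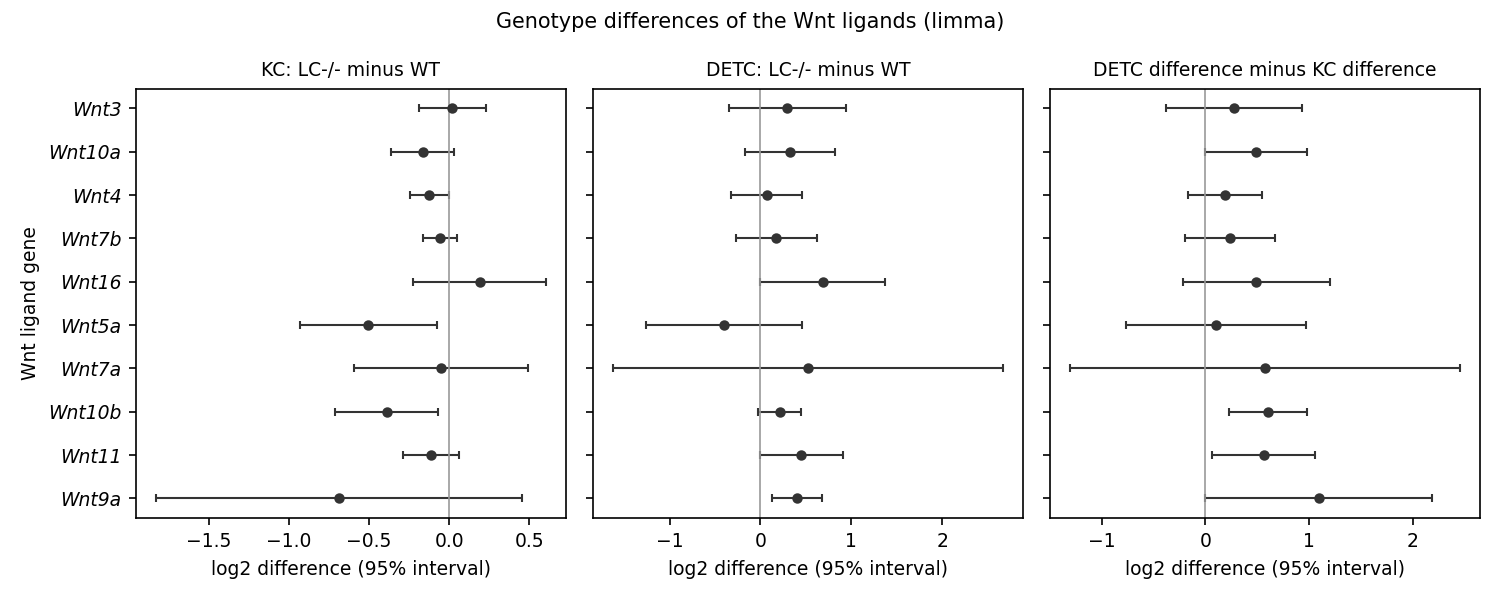
Log2 difference (limma, points, with 95% intervals as bars) of each Wnt ligand between LC-/- and WT mice in KCs (left) and DETCs (middle), and the DETC difference minus the KC difference (right). No ligand passed an adjusted p under 0.05 in the 3 panels, and all 10 points of the right panel lie above 0, or 5 of 10 without DETC library L2.

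Of the 9 Wnt genes that were not followed above, 3 passed the filter, Wnt3a, Wnt5b and Wnt6. All 3 were higher in WT KCs than in WT DETCs. Wnt3a, a canonical ligand next to Wnt9a in the genome, had 102, 111 and 98.5 counts in WT KCs and 14.2, 22.3 and 18.5 in WT DETCs. Wnt6 had 119, 113 and 135 counts in WT KCs and 17.5, 19.8 and 31.1 in WT DETCs. Between genotypes Wnt3a had 67.2, 72.3 and 82.0 counts in LC-/- KCs, all below the WT libraries, and limma did not call it (log2 difference -0.49, 95% interval -0.79 to -0.20, limma adjusted p = 0.0696). Wnt5b, a relative of Wnt5a, was called by limma. Its counts were 49.2, 50.1 and 54.5 in WT and 72.7, 89.6 and 97.7 in LC-/- KCs, with no overlap. The log2 difference was 0.74 (standard error 0.15, limma adjusted p = 0.0476). It was lost in 6 of 6 fits that left out 1 KC library, with an adjusted p of 0.0814 to 0.149, and held in 9 of 11 other alternatives.

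The other genes of the pathway were read from 9 lists, the other Wnt genes included, with 84 different genes tested. In WT DETCs limma called 18 higher and 55 lower than in WT KCs, with a median log2 difference of -1.44, against 5906 higher and 5059 lower of 14419 and a median of 0.07 over all tested genes. Between genotypes 3 of the 84 rose and 8 fell in KCs, where 775 of all 14419 genes rose and 267 fell. In DETCs 1 of the 84 rose and 0 fell, against 452 and 62 of all genes. An unadjusted p under 0.05 was reached by 12 of the 84 above 0 and 3 below 0, against 1882 and 893 of all 14419 genes. edgeR called 1 higher and 0 lower, against 410 and 73 of all genes, and DESeq2 called 5 higher and 0 lower, against 868 and 211.

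Of 5 genes of Wnt secretion 1 was higher in WT DETCs, 3 were lower and 1 was not called. Wls, the carrier of lipid-modified Wnts, had 3047, 3030.2 and 3261 counts in WT KCs and 754, 761 and 919 in WT DETCs, a log2 difference of -1.94. Porcn, the enzyme that attaches the lipid, had 76.9, 77.9 and 64.0 counts in WT KCs and 13.1, 13.2 and 19.4 in WT DETCs. In DETC libraries Wls stood at 24.0% to 29.5% of its mean KC value, above the median of the keratinocyte list in all 5. The cargo receptor Tmed10 was higher in WT DETCs (0.79) and Tmed5 lower (-0.70).

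The receptors of the ligands were also mostly lower in WT DETCs, with 13 of 16 called lower and 2 higher. Of all tested genes 35.1% were called lower and 41.0% higher there. Both populations held co-receptors, with means of 1889 in WT KCs and 1753 in WT DETCs for Lrp6, and of 2091 and 869 for Lrp5. Fzd6, a receptor of hair patterning, had 1209, 1085 and 1202 counts in WT KCs and 178, 156 and 215 in WT DETCs, and Ror2 (-2.63) and Fzd10 (-2.57) were lower as well. Fzd4 (2.90) and Fzd5 (1.57) were the receptors that were higher in WT DETCs. Fzd5 rose in LC-/- DETCs, from 3208, 3690.4 and 3401 counts in WT to 5456 in L2 and 5066 in L3, a log2 difference of 0.62 (standard error 0.09, limma adjusted p = 0.0204). The call held in 2 of 5 fits that left out 1 DETC library, was lost without W2, W3 or L2 (adjusted p of 0.0319 to 0.113 over the 5 fits), and the adjusted p ranged from 2.81e-06 to 0.180 over all 16 alternatives.

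Of 9 tested antagonists that act outside the cell or at its membrane, 8 were lower in WT DETCs and Dkkl1 was higher (2.36). In LC-/- KCs 3 of 9 fell and all 9 were below 0, against 267 and 7471 of all 14419 genes. Sostdc1, which binds and blocks Wnt co-receptors, fell from 829, 870.0 and 901 counts in WT to 577, 481 and 553 in LC-/- KCs, a log2 difference of -0.69 (standard error 0.08, limma adjusted p = 0.0205). Apcdd1 (-0.47) and Dkk3 (-0.30) fell with it. With each KC library left out in turn, the call of Sostdc1 held in 1 of 6 fits and those of Apcdd1 and Dkk3 in 0 of 6. R-spondins bind LGR receptors and amplify Wnt signals by blocking Rnf43 and Znrf3, ubiquitin ligases that remove Frizzled receptors. Of 6 tested genes of this list the 2 ligases were higher in WT DETCs, Rnf43 (1.40) and Znrf3 (0.40), and 4 genes were lower, Rspo3 (-3.42), Lgr6 (-2.59) and Lgr5 (-2.26) among them. Rspo3 fell in LC-/- KCs, from 312, 287 and 232 to 141, 146 and 181 counts (log2 difference -0.82, limma adjusted p = 0.0446). Lgr6, a stem cell receptor of R-spondins, had 2692, 2263 and 2328 counts in WT and 2028, 2431 and 2550.2 in LC-/- KCs.

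Within the cell, Axin2, a feedback target of beta-catenin, was present in both populations and higher in DETCs. It had 969, 915 and 836 counts in WT KCs and 4595, 4594 and 4931 in WT DETCs (log2 difference 2.38). In LC-/- mice it stood at 559.7, 689 and 538 in KCs and at 6026 and 6344 in DETCs. The genotypes did not overlap in either population, as for 31.5% of all tested genes in KCs and 37.9% in DETCs. It fell in LC-/- KCs (-0.61, limma adjusted p = 0.0436). Ctnnb1, the gene of beta-catenin, had 7594, 7477 and 8009.7 counts in WT KCs and 5564, 5194 and 5122 in WT DETCs, and 7804 and 6591 in LC-/- DETCs. Of 11 genes of beta-catenin and its destruction complex, 4 were higher and 3 lower in WT DETCs, Dvl2 (0.97), Gsk3a (0.37), Csnk1a1 (-0.78) and Dvl3 (-0.31) among them, and Axin1 rose in LC-/- KCs (0.32). Of 12 TCF/LEF factors and cofactors 3 were higher and 7 lower in WT DETCs, with Tcf7 at 5.04, Lef1 at 1.48, Tle4 at 0.73, Pygo1 at -2.62, Tcf7l2 at -2.32 and Tcf7l1 at -1.49. Lef1 was low in every library, with a mean of 10.7 in KCs of WT mice, and of 29.8 in WT and 11.0 in LC-/- DETCs. Bcl9l fell in LC-/- KCs (-0.33).

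Common targets of beta-catenin had no single direction, with 8 higher and 8 lower of 17 in WT DETCs. Of all 14419 genes 5906 were higher and 5059 lower there. Bambi (3.21) was among the higher and Tnfrsf19 (-2.52) among the lower, and in LC-/- KCs Cd44 rose (0.89) while Tnfrsf19 fell (-0.58). Of 13 tested genes of planar cell polarity and the non-canonical branch 2 were higher, Invs (2.31) and Rhoa (0.18), and 9 lower in WT DETCs, with Prickle2 (-2.79), Celsr2 (-2.63) and Celsr1 (-2.07) lowest. The call of Rhoa held in 1 of 6 fits that left out a library and in 6 of 12 other alternatives, with an adjusted p of 0.0132 to 0.172. Prickle2 fell in LC-/- KCs (-0.26), and its call held in 0 of 6 fits that left out a KC library and in 5 of 11 other alternatives. Quantile normalization moved the median over all tested genes from 0.07 to -0.24, turned Rhoa to -0.12 and ended the calls of Znrf3 (limma adjusted p = 0.0672), Gsk3a (0.179) and Lef1 (0.0509), while the 10 ligands kept their direction and call. Most calls in LC-/- KCs were lost with a single library left out. Of the 11 genes called among the lists, Sostdc1, Axin2, Bcl9l and Cd44 kept an adjusted p under 0.05 in 1 of 6 fits that left out a KC library, and the other 7 in 0 of 6.

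Genes whose profile over the 11 libraries was most like that of Wnt3, Wnt10a and Wnt7b, the 3 ligands with the most counts per kb over all 6 KC libraries (497, 443 and 356), were found by the smallest root mean square difference of centred log2 values. For Wnt3 they were Mapk13 (0.106) and Chit1 (0.111), for Wnt10a Galnt18 (0.0866) and Cxcl14 (0.0970), and for Wnt7b AI661453 (0.0811) and Dab2ip (0.0820).

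The ligand genes are protein coding and lie on 7 chromosomes (GRCm38, GENCODE). Of the DETC ligands, Wnt9a is at chr11:59306928-59333552, Wnt10b at chr15:98770712-98778150 on the minus strand and Wnt11 at chr7:98835112-98855195. Wnt pairs that are neighbours in the genome did not share a population by rule. Wnt9a, higher in DETCs, lies 16175 bases from Wnt3a, higher in KCs, on the opposite strand. Wnt10a and Wnt6, both higher in KCs, lie 6193 bases apart on the same strand. Wnt10b lies 11706 bases from Wnt1, and Wnt3 24328 bases from Wnt9b, and neither Wnt1 nor Wnt9b passed the filter. Exons of antisense genes overlap 4.58% of the exon length of Wnt5a, 6.61% of Wnt7b and 8.80% of Wnt11. The strand setting of the counting is not given in the sources used here, so reads of both genes cannot be told apart there.

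Promoter sequences from RefSeq (GRCm38.p6) were matched for 7 of the 10 ligands, Wnt3, Wnt4, Wnt7a, Wnt9a, Wnt10b, Wnt11 and Wnt16. The bases upstream of the start are shown for the 3 DETC ligands and for 2 KC ligands, because these genes part the populations. They are Wnt9a at chr11:59306680-59306927 (plus strand), Wnt10b at chr15:98778151-98778400 (minus strand), Wnt11 at chr7:98834862-98835111 (plus strand), Wnt3 at chr11:103773925-103774149 (plus strand) and Wnt16 at chr6:22287977-22288226 (plus strand), each read 5′ to 3′ on the strand of its gene. Capitals mark the SP/KLF motif GGGCGG on either strand.
Wnt9a: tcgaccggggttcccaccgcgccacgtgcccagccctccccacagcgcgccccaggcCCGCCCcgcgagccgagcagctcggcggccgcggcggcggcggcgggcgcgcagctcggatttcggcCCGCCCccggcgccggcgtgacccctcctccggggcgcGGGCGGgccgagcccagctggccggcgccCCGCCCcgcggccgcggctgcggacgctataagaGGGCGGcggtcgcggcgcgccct
Wnt10b: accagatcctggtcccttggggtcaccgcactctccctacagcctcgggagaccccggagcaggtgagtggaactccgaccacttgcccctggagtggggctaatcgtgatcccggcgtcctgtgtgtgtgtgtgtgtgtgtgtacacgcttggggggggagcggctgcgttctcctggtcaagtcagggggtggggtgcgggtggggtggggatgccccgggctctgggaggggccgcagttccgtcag
Wnt11: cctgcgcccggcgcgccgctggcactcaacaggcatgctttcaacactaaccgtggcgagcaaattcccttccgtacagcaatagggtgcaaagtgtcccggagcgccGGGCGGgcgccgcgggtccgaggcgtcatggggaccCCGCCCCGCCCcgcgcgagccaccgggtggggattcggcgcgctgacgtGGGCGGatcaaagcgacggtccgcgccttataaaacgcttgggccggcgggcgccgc
Wnt3: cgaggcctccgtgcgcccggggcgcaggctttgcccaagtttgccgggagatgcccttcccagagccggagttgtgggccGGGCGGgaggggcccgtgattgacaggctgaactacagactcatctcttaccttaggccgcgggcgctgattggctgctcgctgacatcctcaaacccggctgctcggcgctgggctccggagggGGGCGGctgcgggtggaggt
Wnt16: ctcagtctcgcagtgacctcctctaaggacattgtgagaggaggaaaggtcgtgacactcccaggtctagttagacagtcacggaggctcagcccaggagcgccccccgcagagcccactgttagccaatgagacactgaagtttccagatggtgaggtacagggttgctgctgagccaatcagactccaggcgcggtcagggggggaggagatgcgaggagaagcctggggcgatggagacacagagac

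Motifs were counted on both strands of the 250 bases of each promoter before its start. GGGCGG was most frequent for 2 KC ligands, Wnt4 with 8 matches, some of them inside the annotated gene, and Wnt7a with 6. It was found 5 times for Wnt9a, 4 for Wnt11 and 2 for Wnt3, and 0 times for Wnt10b and Wnt16, while 32.7% of all 32851 promoters in the table hold it. The ligands of DETCs thus include promoters with and without it, and so do the ligands of KCs. CTTTGA, the core bound by TCF/LEF factors, was in this Wnt11 promoter alone and is in 13.8% of all promoters. TATAAA was also in this Wnt11 promoter alone (12.4% of all), and the E-box CAGCTG in the Wnt9a promoter alone (13.0%). The cores TGTGGT of RUNX (14.0%), TGANTCA of AP-1 (6.75%), CCGGAAG of ETS (6.91%) and AGATAA of GATA (9.99%) had no match in the 7 ligands. Another Wnt11 promoter, which starts inside the gene, had 0 matches to these SP/KLF, TCF/LEF and TATA motifs and a GC content of 56.8%. The GC content of the 250 bases was 85.2% for Wnt4, 77.6% for Wnt7a, 84.4% for Wnt9a, 70.8% for Wnt11, 66.8% for Wnt10b, 68% for Wnt3 and 59.2% for Wnt16, all above the median of 52.4% over all promoters. A match is a description, and no match says only that these letters are not in this window.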

How the data were processed

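Sorted KCs and DETCs of WT and LC-/- mice were measured by RNA-seq. The signal values are gene counts that the authors made with FastQC, cutadapt, hisat2 (GRCm38), samtools and featureCounts and deposited after DESeq2 median-of-ratios scaling, with versions not given in the sources used here. Size factors recovered from the steps between the values of each library gave back whole reads for 100% of values (tolerance 0.1 reads). Genes with a CPM above 1 in at least 2 libraries were tested on log2 of the value plus a pseudocount of 1 with limma 3.58.1 (R 4.3.3), with trend, for the genotype in KCs, the genotype in DETCs, WT DETCs against WT KCs, and the interaction. edgeR 4.0.16 and DESeq2 1.42.0 were run on the reads. The code was tested on simulated data. A count of 0 was taken to allow up to 3 reads. Beside the ligands, the report names called pathway genes with a mean of at least 10, at most 3 per list and direction by the largest log2 difference, and a few genes of the pathway for their levels. Members and lists were chosen with earlier results of these data known. Alternatives tried were pseudocounts of 0.5 and 8, no filter, a minimum mean of 10, size factors within the compared libraries, TMM and quantile normalization, edgeR, DESeq2, no trend, 1 fit over all 11 libraries, a replicate block and leaving out each library.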

Additional observations from a re-analysis of the deposited data

Results flagged for a closer look

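Axin2 was singled out because its difference between genotypes was not the same in the 2 populations by the interaction test of limma. The log2 difference was -0.61 in KCs, from 969, 915 and 836 normalized counts in WT to 559.7, 689 and 538 in LC-/- libraries. In DETCs it was 0.39, from 4595, 4594 and 4931 to 6026 and 6344. Within KCs limma called it (limma adjusted p = 0.0436), and the call held in 1 of 6 fits that left out a KC library. Within DETCs limma did not call it. The interaction was 1.01 (95% interval 0.70 to 1.32, limma adjusted p = 0.00969). It was called in all 11 fits that left out 1 library and in 9 of 10 other alternatives, with a log2 range of 0.84 to 1.12. None of the 10 ligands met this rule.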

How the results depend on the processing

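The population differences of the 10 ligands kept their direction and call in every alternative run, and Wnt7a, below the minimum mean of 10, was not tested in that alternative. Between genotypes the number of ligands called by limma was 0, and it became 1 in KCs with edgeR and 1 with DESeq2 (Wnt5a). Leaving out each library gave 0 to 1 ligands in DETCs and 0 to 1 for the interaction, in both cases 1 without library L3.

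Over all tested genes, 1042 were called in KCs, and 340 without the filter, 633 with quantile normalization, 1783 with edgeR, 1752 with DESeq2 and 5 to 721 with each library left out. In DETCs 514 were called, and 185 without the filter, 263 with quantile normalization, 1079 with DESeq2, 959 in 1 fit over all 11 libraries and 35 to 590 with each library left out. Without the trend the count in DETCs was 0, while an unadjusted p under 0.05 was reached by 1554 genes above 0 and 853 below, and edgeR called 483. For the interaction 115 were called, and 312 with DESeq2, 22 without the trend and 32 to 138 with each library left out. With the replicate block 132 were called for the interaction and 10873 for WT DETCs against WT KCs, against 10965, and Rhoa lost its call.

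Quantile normalization reversed Wnt3 (-0.0783) and Wnt7a (0.00402) in KCs and Rhoa in WT DETCs (-0.12), and moved the median difference between the populations from 0.07 to -0.24. Where leaving out a library reversed a ligand, the log2 differences ran in KCs from -0.0291 to 0.0958 for Wnt3 and -0.23 to 0.0776 for Wnt7a. In DETCs they ran from -0.23 to 0.83 for Wnt3, -0.15 to 0.28 for Wnt4, -0.33 to 1.37 for Wnt7a and -0.17 to 0.52 for Wnt7b. For the interaction they ran from -0.25 to 0.81 for Wnt3, -0.0224 to 0.40 for Wnt4, -0.29 to 0.50 for Wnt5a, -0.27 to 1.42 for Wnt7a and -0.11 to 0.58 for Wnt7b. In DETCs and for the interaction the lowest of each came without L2 and the highest without L3, and the cause was not tested. A lone LC-/- DETC library was assumed to vary like the others.

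Libraries with the same mouse number were not paired in the main fits, and the replicate block took the numbers as given. The correlation of their residuals was not over 0.1 for every number (W1 -0.0586, W2 0.0736, W3 0.120, L2 0.156, L3 0.128). For W2, L2 and L3 the best match was the own number, and for W1 and W3 it was another. These correlations cannot decide whether equal numbers share a mouse. Residuals were centred on group means, so those of the 2 LC-/- DETC libraries mirror each other. Keratinocyte shares taken from the KC library of the same number were 15.4%, 15.9%, 18.5%, 26.2% and 16.4%. The share of DETC genes in KC libraries was added after seeing the data. With 2 LC-/- DETC libraries a difference between genotypes in DETCs rests on few values. Transcript levels do not give secreted protein, and bulk libraries do not show which cell of a sort a transcript came from.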
